A study of Bos taurus with 86 samples.

Results

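The comparison set 15 bovine embryos labelled IVF against 14 labelled IVD, which are 29 of the 43 single embryos of the study. The members were taken by their labels alone, and no measured value chose them. AI stands for artificial insemination and IVF for fertilization in vitro. The labels do not spell out IVD, so it is used as the name of a group, and which steps of maturation, fertilization and culture its embryos shared with the IVF embryos was not stated. The same holds for breed, sire, oocyte donors, medium, embryo age or stage. What all groups share is single-embryo RNA amplified linearly in 3 rounds, hybridised beside a common reference RNA that had passed through 2 rounds, on 2 cDNA arrays per embryo with exchanged dyes. The other 14 embryos, labelled AI, served to estimate the spread and to choose the rows tested, which needed values in at least 7 embryos of each group. Their level is given as a value beside some of the genes. Nothing states which embryos had a donor in common. The numbers of IVD embryos 12_1, 12_2, 12_3 and 12_4 start alike, and the p-values measure only the spread between the embryos as labelled.

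A mammalian embryo before implantation sorts its cells into trophectoderm, the epithelium that pumps the blastocoel and later builds the placenta, and an inner cell mass. In the days before that it exchanges the RNA stored in the oocyte for its own, so its splicing, translation and protein degradation machinery is in turnover while it divides. Serine, glucose, lipid and redox metabolism of such embryos is known to respond to the fluid around them, and imprinted genes carry parental methylation through this period.

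A level below is the log2 ratio of embryo to reference after each array was centred on its median, averaged over an embryo's arrays, and a difference is the IVF mean minus the IVD mean of such levels with its SE. The labels do not state which dye is the numerator. Embryo over reference was taken as likely because 15 of 17 trophectoderm markers lay above the reference in IVF and 15 of 17 in IVD, and the opposite reading would turn every sign. A feature is a named gene (3433 of them) or an unnamed array row (2845). All adjusted p-values are from limma over all 6278 features, with a threshold of 0.05. By that threshold 47.6% of features differed between IVF and IVD, 22.3% being higher and 25.2% lower in IVF, which is the background for every count below. The median difference of all features was -0.0088, and the median SE was 0.152. A 2-fold difference was exceeded by 513 of the features that passed, 174 higher and 339 lower in IVF. For 1906 features the whole 95% interval of the difference lay within 0.5 of 0.

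The groups also differed in what the arrays recorded. Between 13460 and 15071 rows had a value on both arrays of an IVD embryo, against 9777 to 12472 in IVF and 9182 to 11653 in AI. In 3755 of 16416 rows at least 7 IVD embryos but fewer than 7 IVF embryos had a value, against 64 rows the other way round. Embryos were clustered by their dye bias in each row, the mean of both arrays before the sign of the Cy3 array was turned. All 14 IVD embryos fell into a cluster that held only 2 of the 15 IVF embryos. With that cluster as a block, which rests the comparison on those 2 IVF embryos, 541 features passed, 533 of the original calls among them, and 97.6% of the original calls kept their sign. IVF embryo 7 stood alone in a cluster of its own, with the lowest correlation between its dyes (0.717) among the IVF embryos. Over all rows with values, IVD embryos had lower correlations between dyes (0.59 to 0.77, median 0.67) than IVF embryos (median 0.88). On the rows measured on every array the order was reversed, with medians of 0.964 in IVD and 0.921 in IVF. Without IVF embryos 1, 7 and 11, which had the lowest limma weights of the IVF embryos, 2864 features passed and 2661 of the original calls were kept. In the fit with the cluster as a block the SE was 1.99 times as large in the median. Group and dye pattern therefore cannot be told apart for most features, and the part of the dye pattern in the results below was not tested further. Left without centring, as deposited, the ratios gave a median difference of -0.266 over all features and only 17.5% of calls higher in IVF, against 47.0% after centring, so each direction is relative to the centre of the arrays.

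The difference between IVF and IVD went with the level of a feature. Among the 29 features whose mean over the 3 groups lay above 4, the median difference was -0.91, and 26 were lower and 0 higher in IVF. Between 2 and 4 the median was -0.41 (190 features, 18 higher and 96 lower), and between 1 and 2 it was -0.19 (600 features). It was close to 0 for the 2414 features between -1 and 0 (0.057) and turned to 0.29 for the 30 features at or below -4, with 12 higher and 2 lower. The highest features stood apart in IVD rather than in IVF: above 4 the median of IVD minus AI was 0.95 and that of IVF minus AI was -0.10. When the smooth trend of each embryo on the level was removed, 5 of the 29 highest features were higher and 7 lower, and 2937 features passed in all. The plot of differences by level shows both the single features and these medians. Values for genes at the ends of this range are given below with and without the trend.

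**Figure D1:**
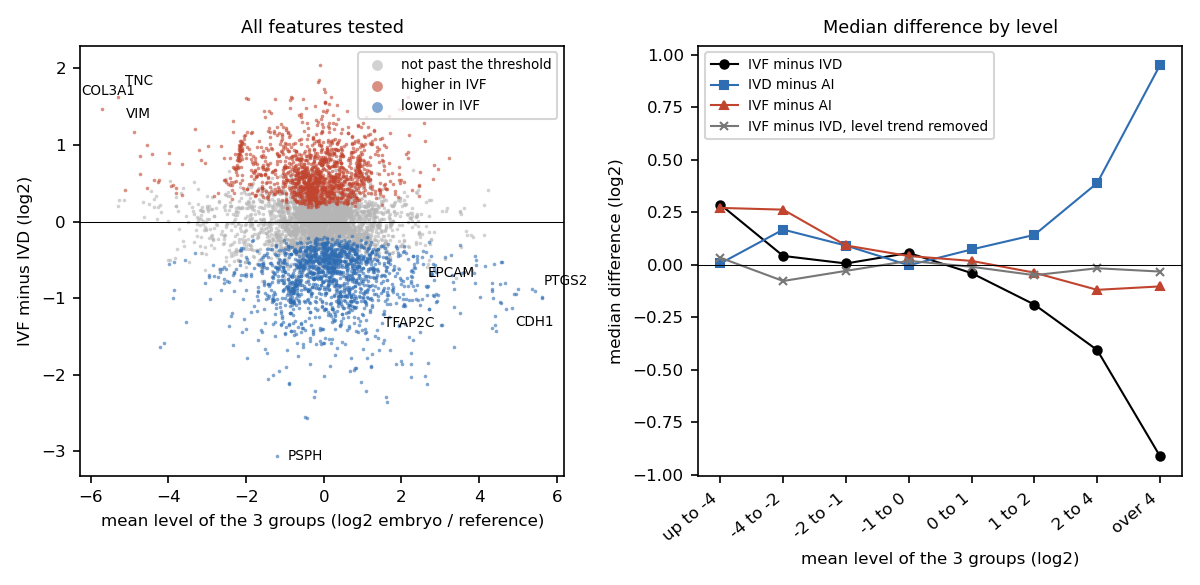
Left, the difference IVF minus IVD of each of 6278 features (log2) against its mean level over the 3 groups (log2 of embryo over reference), red for higher in IVF, blue for lower and grey for features not past the threshold. Right, the median difference of each pair of groups in 8 ranges of level; IVF minus IVD goes from 0.29 at the lowest levels to -0.91 at the highest, while IVF minus AI ends at -0.10 and the grey line, IVF minus IVD without the level trend, at -0.032.

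The genes lower in IVF by the largest amounts or without overlap came from several functions. PSPH, the phosphatase that releases serine in the last step of its synthesis, ran from -3.71 to -1.06 (median -1.92) in IVF and from -0.08 to 1.83 (median 1.10) in IVD. The groups did not overlap, the difference of -3.06 ± 0.29 was the lowest of all named genes that passed (adjusted p = 1.36e-11), and the AI median of -2.76 lay on the IVF side. CRIPT, which binds the PDZ domains of scaffold proteins, ran from -0.74 to 0.62 (median 0.24) in IVF and from 1.53 to 2.21 (median 1.82) in IVD. The gap between the groups was wide, the difference was -1.67 ± 0.12 (adjusted p = 6.5e-15), and the AI median of 1.00 lay between the medians of the groups. S100A14, a calcium-binding protein of epithelia, ran from 0.036 to 0.96 (median 0.45) in IVF and from 1.82 to 2.79 (median 2.07) in IVD, again without overlap, with a difference of -1.73 ± 0.14 (adjusted p = 1.24e-13) and an AI median of 1.12. For CD48, a cell-surface ligand anchored by glycosylphosphatidylinositol (GPI), the IVF range went from 1.06 to 2.43 (median 1.67) and the IVD range from 3.07 to 4.08 (median 3.45). It differed by -1.84 ± 0.16 (adjusted p = 1.05e-12), still by -1.45 without the level trend, and its AI median was 2.80. UTP11, part of the particle that matures the small ribosomal subunit, ran from -0.29 to 0.63 (median 0.34) in IVF and from 1.18 to 1.99 (median 1.71) in IVD, a difference of -1.44 ± 0.10 (adjusted p = 5.7e-15) with all IVF embryos below all IVD embryos.

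Others among the 15 lowest named genes act in mitochondria, membranes and protein turnover. PPM1K, the mitochondrial phosphatase that switches on branched-chain amino acid breakdown, differed by -2.10 ± 0.32 (adjusted p = 5.62e-07), its IVF values running from -1.50 to 0.93 (median -0.049) and its IVD values from 0.46 to 3.27 (median 1.86), so the groups overlapped. SPTSSA, a small subunit of the enzyme that starts sphingolipid synthesis, differed by -1.91 ± 0.18 (adjusted p = 7.9e-12), from an IVF median of 0.15 to an IVD median of 1.89 without overlap. PIP5K1A, a kinase that makes the membrane lipid PIP2, differed by -2.01 ± 0.25 (adjusted p = 7.92e-09), with medians of -2.25 in IVF, -0.11 in IVD and -1.35 in AI. ZAP70, a kinase known from T cell signalling, differed by -2.03 ± 0.30 (adjusted p = 5.87e-07), with medians of 1.35 and 3.22. SH3BGR and SH3BGRL, a pair of related small proteins, differed by -1.90 ± 0.24 and -1.95 ± 0.30. FBXO32, the F-box subunit of a ubiquitin ligase, differed by -1.86 ± 0.30 (adjusted p = 1.8e-06), but by -2.92 when the embryo was in Cy3 and by -0.80 when it was in Cy5. The AI mean lay nearer to the IVF mean for 7 of these 15 genes and nearer to the IVD mean for 8.

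Among the genes higher in IVF, TBRG4, a protein that stabilises mitochondrial RNA, ran from 0.53 to 2.02 (median 0.86) in IVF and from -0.80 to 0.056 (median -0.42) in IVD. The difference was 1.33 ± 0.11 (adjusted p = 1.52e-13), with no overlap and an AI median of 0.57. TRIM28, the corepressor that KRAB zinc finger proteins bring to transposons and imprinted loci, ran from 0.30 to 1.69 (median 0.83) in IVF and from -1.18 to -0.021 (median -0.70) in IVD. Every IVF embryo lay above every IVD embryo, the difference was 1.52 ± 0.13 (adjusted p = 8.58e-13), and its 2 clones on the array gave 1.47 to 1.58. The AI median of 0.80 was on the IVF side. UBA1 and UBR4, an enzyme that activates ubiquitin and a large ubiquitin ligase, differed by 1.50 ± 0.22 (adjusted p = 2.41e-07) and 1.23 ± 0.12 (adjusted p = 1.52e-11). Both had negative medians in IVD (-1.23 and -1.13) and positive ones in IVF (0.38 and 0.099), and the groups did not overlap for UBR4, which differed by 0.74 with rows from 2 embryos per group. BTBD6, an adaptor of cullin 3 ubiquitin ligases, differed by 1.18 ± 0.12 (adjusted p = 1.06e-10), with medians of -2.16 in IVD and -1.10 in AI and no overlap between IVF and IVD. TMEM214, a protein of the endoplasmic reticulum, differed by 1.60 ± 0.15 (adjusted p = 1.43e-11) without overlap.

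DPP3, a zinc peptidase of the cytosol, and DNAJA3, a mitochondrial co-chaperone, were higher in IVF by 1.73 ± 0.17 and 1.69 ± 0.20. DNAJA3 levels were above 0 in 14 of 15 IVF embryos and in 0 of 14 IVD embryos, with a single IVF embryo at -1.52. Against AI itself 37.7% of features differed in IVF and 46.5% in IVD; both comparisons use the same AI embryos. The AI mean lay nearer to the IVF mean for 13 of the 15 genes with the largest positive difference. Over all calls it did so for 863 of 1403 features that were higher and for 935 of 1583 that were lower in IVF. Of 4187 features measured in all 29 embryos, 3.94% did not overlap between the groups. Among them 102 are named genes that passed, 45 higher and 57 lower in IVF. Over all features, however many embryos had a value, 3.28% did not overlap. The plot of single embryos shows 8 genes without overlap.

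**Figure D2:**
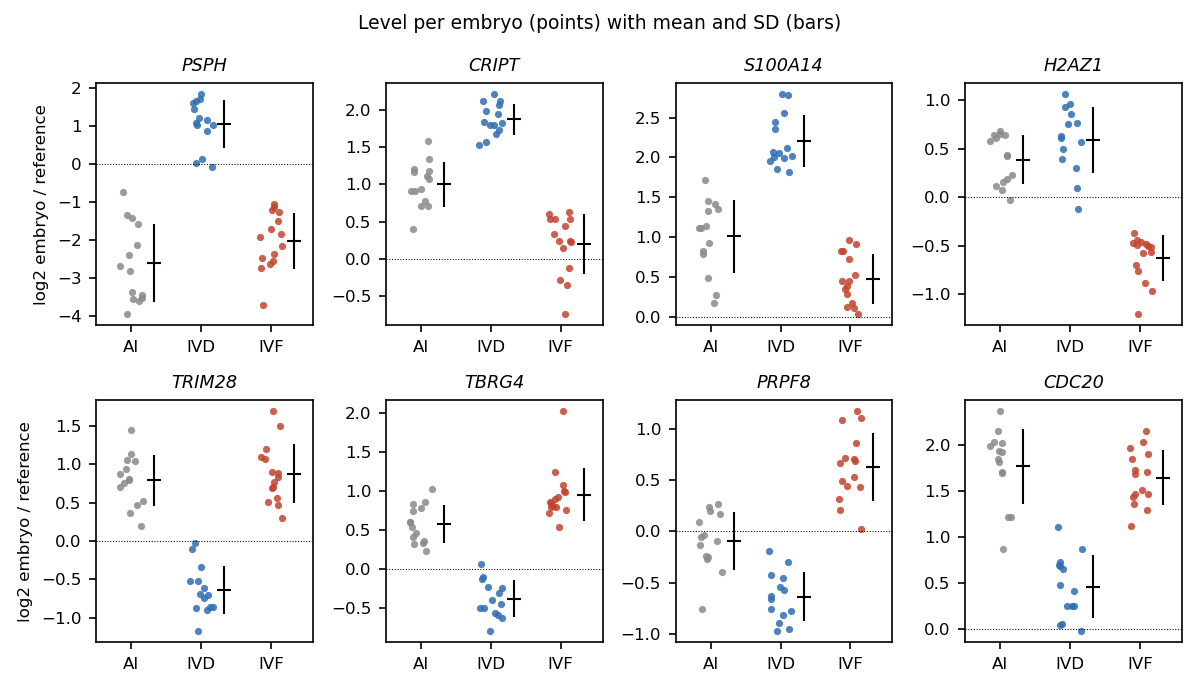
Level of 8 genes (log2 of embryo over reference) in each AI, IVD and IVF embryo, a point per embryo, with the mean and SD of the group as a cross and bar; the dotted line marks the reference. For PSPH, CRIPT, S100A14 and H2AZ1 every IVF point lies below every IVD point, for TRIM28, TBRG4, PRPF8 and CDC20 every IVF point lies above, and the AI median is nearer to that of IVD for H2AZ1 and PRPF8 and nearer to that of IVF for the other 6 genes, for CRIPT only slightly.

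Counts for whole gene lists are set beside the 22.3% higher and 25.2% lower among all features, in the plot of gene lists. Lists with one-sided counts were Wnt, BMP, FGF and Notch signalling (0 of 11 tested members higher, 6 lower, median difference -0.37), cell cycle and mitosis (6 of 14 higher, 0 lower, median 0.29), splicing and RNA processing (5 of 41 higher, 18 lower, median -0.25) and glycolysis with the pentose phosphate pathway (8 of 20 higher, 2 lower, median 0.34). In these 4 lists the direction of the majority stayed the same under quantile normalization, without the level trend and on each dye alone. With the dye cluster as a block, which rests on 2 IVF embryos, fewer genes passed in each of these 4 lists, the signalling list included. Splicing then had 2 higher and 4 lower (median -0.22), glycolysis 5 and 0 (median 0.35), and cell cycle 3 and 0 (median 0.37). Most other lists held members that differed in both directions, even within one protein complex.

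**Figure D3:**
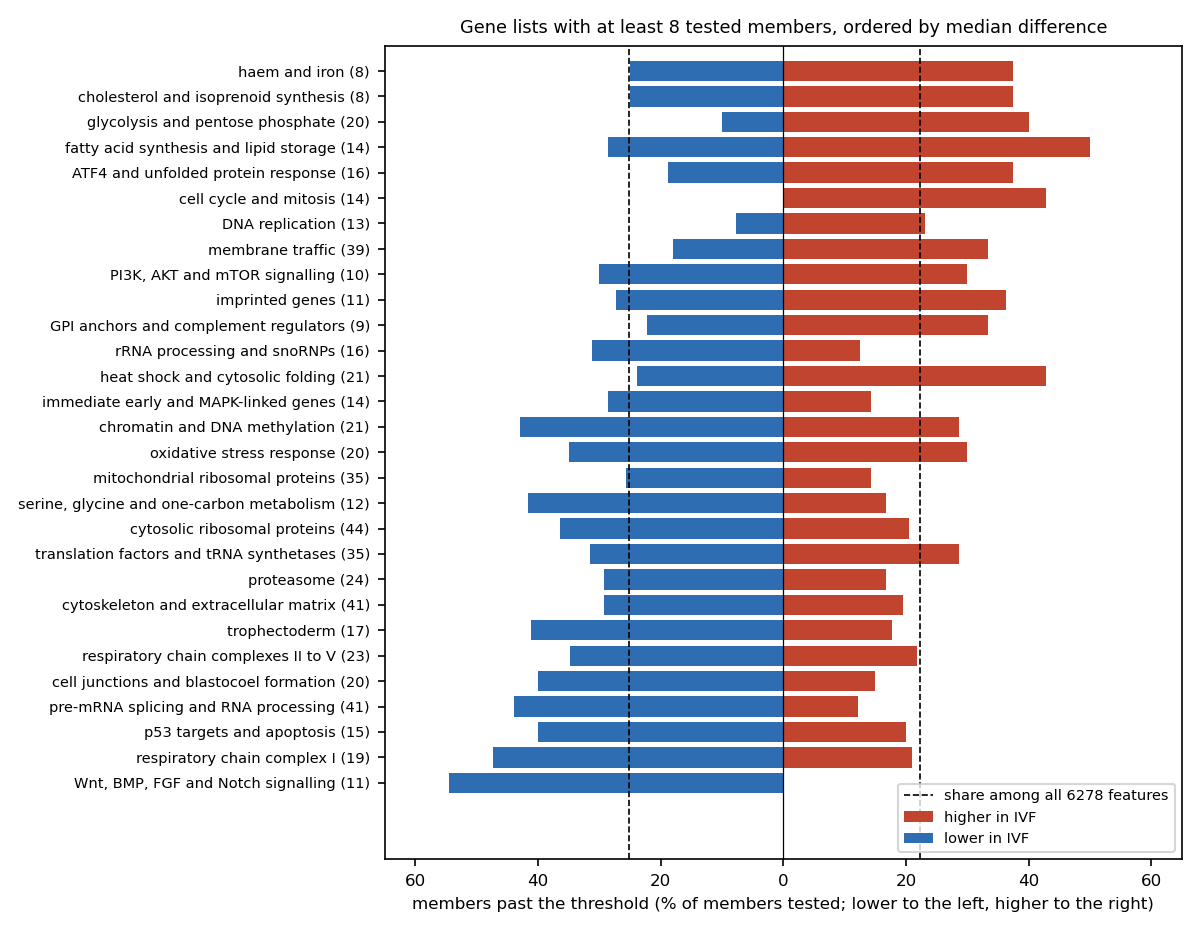
Share of tested members (%) of each gene list with at least 8 tested members (number in brackets) that passed the threshold, higher in IVF to the right and lower to the left; dashed lines mark the share among all 6278 features. Lists are ordered by their median difference, from haem and iron (0.56) at the top to Wnt, BMP, FGF and Notch signalling (-0.37) at the bottom.

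RNA processing factors were more often lower (18 of 41) than higher (5 of 41) in IVF. LARP7, which protects the 7SK RNA that holds back transcription elongation, ran from -2.09 to 0.79 (median -0.61) in IVF and from 1.05 to 1.91 (median 1.38) in IVD. No IVF embryo reached the lowest IVD embryo, and the difference was -1.95 ± 0.22 (adjusted p = 1.33e-09), with an AI median of 1.04 near that of IVD. PABPN1, the nuclear poly(A)-binding protein, differed by -1.58 ± 0.16 (adjusted p = 1.13e-10), with medians of -1.11 in IVF, 0.51 in IVD and 0.55 in AI. CPSF3, the nuclease that cuts a transcript at its poly(A) site, differed by -1.41 ± 0.17 (adjusted p = 7.19e-09). Its partner CPSF2 was lower as well (-0.52 ± 0.17, adjusted p = 0.00931), while CPSF1, the largest subunit of the same complex, was higher by 0.42 ± 0.11 (adjusted p = 0.00145), though not past the threshold as deposited (0.17, adjusted p = 0.402).

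SF3B6, which sits at the branch point of the intron, ran from -2.62 to -0.43 (median -0.96) in IVF and from -0.11 to 1.05 (median 0.28) in IVD, a difference of -1.44 ± 0.17 (adjusted p = 2.36e-09) without overlap. Within the same SF3B particle SF3B1 was lower, with a difference of -1.14 ± 0.21 (adjusted p = 2.29e-05), but SF3B3 was higher by 0.95 ± 0.12 (adjusted p = 7.09e-09). PRPF8, the core protein of the active spliceosome, was also higher: it ran from 0.024 to 1.17 (median 0.67) in IVF and from -0.98 to -0.20 (median -0.65) in IVD, with a difference of 1.27 ± 0.11 (adjusted p = 1.38e-12). Its AI median of -0.074 lay between those of the groups, while single AI embryos fell within the range of either group. Of 7 SR proteins tested, which bind exons and help to define them, 3 were lower (SRSF9 -0.84, SRSF3 -0.61, SRSF7 -0.37) and 0 were higher. Of the 4 hnRNPs tested, 3 were lower, HNRNPA2B1 by -1.33 ± 0.17 (adjusted p = 2.8e-08) in the mean of its rows. The HNRNPA2B1 rows ranged from -2.77 to 0.10, so its 2 clones disagreed. HNRNPU, also counted as lower, did not pass without the level trend (-0.21, adjusted p = 0.121) or under quantile normalization (-0.23, adjusted p = 0.13). HNRNPA0 was left out of the counts because too few AI embryos had a value. In a fit of IVF and IVD alone HNRNPA0 was higher in IVF (0.32 ± 0.11, adjusted p = 0.0147). SF3B1 was -0.60 with its best-measured row and SF3B3 was 0.58 with the embryo in Cy3.

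The median level over all 41 RNA processing genes ran from -0.25 to 0.18 over IVF embryos and from 0.091 to 0.55 over IVD embryos, so that the groups overlapped only narrowly. Of the 18 genes lower in IVF, the AI mean lay nearer to IVD for 13 and nearer to IVF for 5. On each dye taken alone 14 of the 18 lower and 4 of the 5 higher genes passed with the same sign; the background shares of such calls are 16.0% lower and 12.9% higher. The plot of members shows both directions side by side. In the related list of ribosomal RNA processing 2 of 16 genes were higher and 5 lower. GAR1, a protein of small nucleolar particles that modify ribosomal RNA, ran from -1.01 to 1.84 (median 0.67) in IVF and from 1.97 to 3.19 (median 2.52) in IVD, a difference of -1.86 ± 0.22 (adjusted p = 2.51e-09) without overlap. DKC1, which works in the same particle as GAR1, was higher by 0.59 ± 0.13 (adjusted p = 0.000195), by 0.33 with the embryo in Cy3, and did not pass as deposited (0.34, adjusted p = 0.13) or with the dye cluster as a block (0.27, adjusted p = 0.504).

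**Figure D4:**
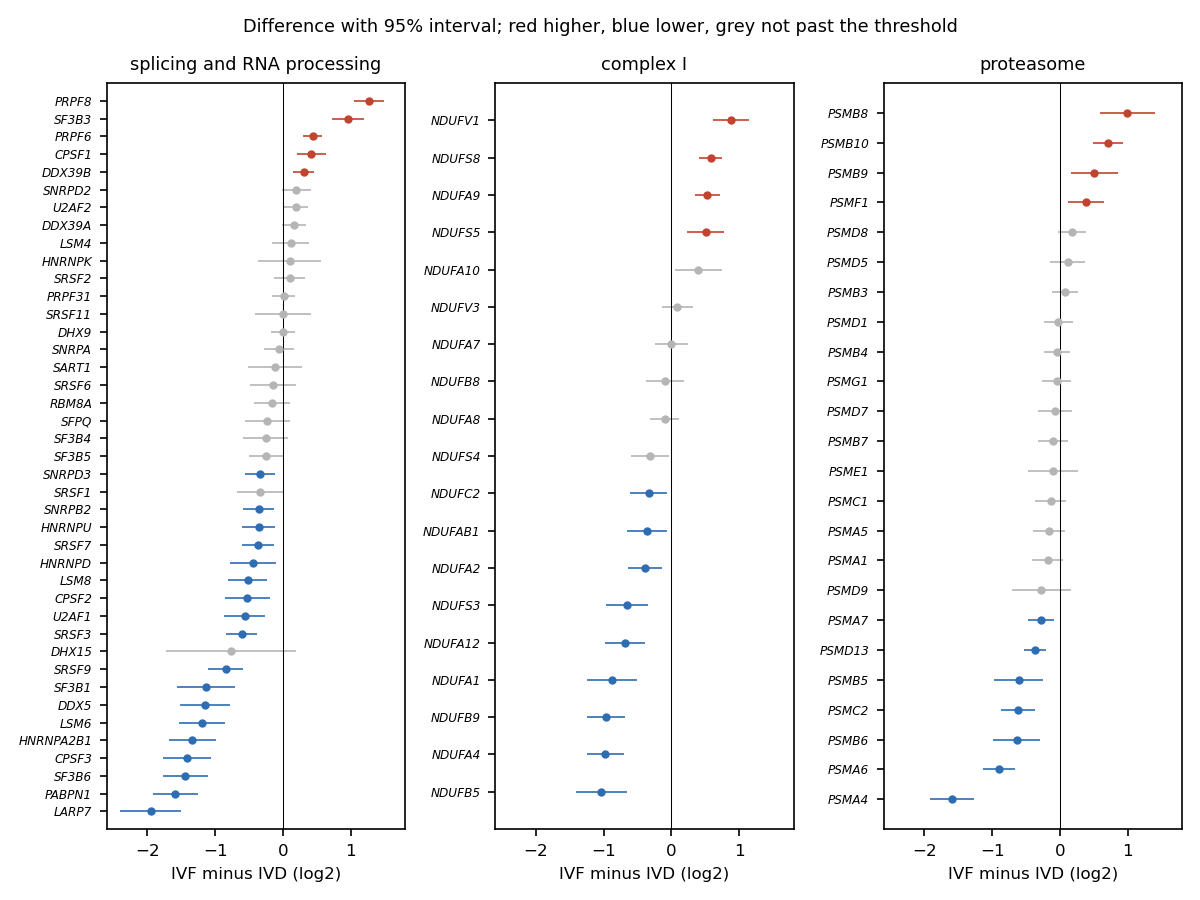
Difference IVF minus IVD (log2) of each tested member of the splicing and RNA processing list (41), complex I of the respiratory chain (19) and the proteasome (24), with its unadjusted 95% interval; red members were higher, blue lower and grey did not pass the adjusted threshold. Each list holds members on both sides of 0, with PRPF8 at 1.27 and LARP7 at -1.95 as the ends of the splicing list.

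The signalling list was one-sided. SMAD1, which carries BMP signals to the nucleus, ran from -1.37 to 1.00 (median -0.21) in IVF and from 0.66 to 2.14 (median 1.21) in IVD. The groups overlapped, the difference was -1.40 ± 0.20 (adjusted p = 2.09e-07), and the AI median was -0.10. ACVR2A, a receptor for activins and BMPs, differed by -0.95 ± 0.21 (adjusted p = 0.000272), with medians of 0.47 and 1.59. HES1, a repressor switched on by Notch, ran from -1.23 to -0.53 (median -0.79) in IVF and from -0.48 to -0.015 (median -0.23) in IVD without overlap, a difference of -0.60 ± 0.09 (adjusted p = 6.09e-07), although the AI median of 0.21 lay above both group medians. ID2, a target of BMP signals, differed by -0.57 ± 0.13 (adjusted p = 0.00041). TCF7L1, a repressor of Wnt targets, differed by -0.51 ± 0.10 (adjusted p = 4.66e-05), but its clones ranged from -1.07 to 0.08, and with the best-measured row alone the difference was -0.02 (adjusted p = 0.895). ID2 was -0.31 with the embryo in Cy3, and ACVR2A was -0.60 with its best-measured row. TGFBR2, a receptor also counted among the 6 lower members (-0.37), did not pass without IVD embryos 12_1 to 12_4 (-0.21, adjusted p = 0.182). Nor did it pass with rows measured in every embryo (-0.22, adjusted p = 0.0926) or with the dye cluster as a block (-0.31, adjusted p = 0.529). BMP7, a ligand, had values in 14 IVD, 8 IVF and 3 AI embryos and was left out of the counts because 7 embryos of every group were asked for. In a fit of IVF and IVD alone, which asks nothing of AI, BMP7 was lower in IVF as well (-0.53 ± 0.19, adjusted p = 0.0237). ID1, another BMP target, had values in 14 IVD and 0 IVF embryos and could not be compared.

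Cell cycle genes that passed were all higher in IVF. CDC20, which activates the anaphase-promoting complex, ran from 1.12 to 2.14 (median 1.68) in IVF and from -0.021 to 1.10 (median 0.45) in IVD, a difference of 1.18 ± 0.13 (adjusted p = 6.99e-10) without overlap, and the AI median was 1.88. CDK4, the kinase of the cyclins D, differed by 1.28 ± 0.14 (adjusted p = 5e-10), with medians of -0.39 in IVF, -1.73 in IVD and -1.10 in AI. AURKB, a kinase of chromosome segregation, differed by 0.77 ± 0.12 (adjusted p = 1.06e-06). ANAPC11 and ANAPC5, subunits of the anaphase-promoting complex, differed by 0.62 ± 0.09 (adjusted p = 5.22e-07) and 0.64 ± 0.20 (adjusted p = 0.00815). As deposited neither passed (ANAPC11 0.37, adjusted p = 0.0556, ANAPC5 0.34, adjusted p = 0.285), and ANAPC5 did not pass with the embryo in Cy3 (0.42, adjusted p = 0.0889). TUBGCP2, of the gamma-tubulin complex that nucleates microtubules, differed by 1.38 ± 0.16 (adjusted p = 3.33e-09), of which 0.63 was seen with the embryo in Cy3 and 2.13 with it in Cy5. Of 3 MCM helicase subunits tested, MCM2 and MCM4 were higher (MCM2 2.04 ± 0.22, MCM4 0.85 ± 0.12); MCM2 had values in only 11 IVF and 11 IVD embryos. In the DNA replication list as a whole 3 of 13 were higher, near the background, and 1 was lower.

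Of 20 tested genes of glycolysis and the pentose phosphate pathway 8 were higher in IVF and 2 lower. ALDOA, the aldolase, ran from 0.12 to 1.56 (median 0.56) in IVF and from -1.29 to -0.23 (median -0.65) in IVD, a difference of 1.39 ± 0.14 without overlap, and its AI median was 0.77. ALDOC, another aldolase, differed by 0.98 ± 0.13 (adjusted p = 6.23e-08) and GAPDH by 1.07 ± 0.17 (adjusted p = 1.09e-06). PKM, pyruvate kinase, ran from -0.61 to 0.50 (median -0.33) in IVF and from -1.15 to -0.66 (median -0.99) in IVD, a difference of 0.72 ± 0.08 (adjusted p = 2.13e-09), again without overlap. PFKP, a subunit of phosphofructokinase, was higher by 0.70 ± 0.11 (adjusted p = 2.3e-06). RPIA, of the pentose phosphate pathway, differed the other way by -0.63 ± 0.11 (adjusted p = 1.07e-05), as did the glucose transporter SLC2A3 (-0.32 ± 0.12, adjusted p = 0.0211), which was not past the threshold with the embryo in Cy3. For 7 of the 8 higher genes the AI mean lay nearer to IVF than to IVD. Among the enzymes around serine, PSPH and GLUL, glutamine synthetase, were lower (GLUL -0.91 ± 0.13, adjusted p = 1.08e-07), whereas SHMT2, which passes a carbon from serine to folate in mitochondria, was higher by 0.65 ± 0.12 (adjusted p = 2.78e-05). The clones of GLUL ranged from -1.29 to -0.52, with -0.59 for the best-measured row.

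Lipid genes differed in both directions. GGPS1, which makes geranylgeranyl diphosphate, and INSIG2, a brake on sterol synthesis, were both lower in IVF (GGPS1 -1.18 ± 0.15, adjusted p = 2.71e-08, INSIG2 -1.18 ± 0.18, adjusted p = 4.35e-07). GGPS1 was -1.73 with the embryo in Cy3 and -0.64 with it in Cy5. FDPS and LSS, enzymes that lead to cholesterol, were higher (FDPS 1.48, LSS 1.59). The fatty acid-binding protein FABP3 ran from -0.54 to 2.11 (median 0.92) in IVF and from 1.46 to 2.52 (median 1.97) in IVD, a difference of -1.01 ± 0.18 (adjusted p = 1.46e-05). ELOVL1, which extends long fatty acids, differed by 0.94 ± 0.14 (adjusted p = 5.31e-07), CPT1A, the gate of mitochondrial fatty acid oxidation, by 0.81 ± 0.25 (adjusted p = 0.0061), and ACADVL, an oxidation enzyme, by 0.75 ± 0.17 (adjusted p = 0.000213). In all, 7 of 14 tested genes of fatty acid metabolism were higher and 4 lower, against 2 and 4 in the values as deposited, where CPT1A did not pass (0.56, adjusted p = 0.0895).

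Antioxidant genes went both ways. SOD1, the cytosolic superoxide dismutase, ran from -3.40 to -1.36 (median -1.99) in IVF and from -1.77 to 0.50 (median -0.64) in IVD, a difference of -1.42 ± 0.19 (adjusted p = 3.89e-08). SOD2, its mitochondrial counterpart, differed in the other direction by 0.99 ± 0.17 (adjusted p = 5.22e-06), with AI medians of -2.15 for SOD1 and 0.81 for SOD2 on the IVF side in each case. TXN, thioredoxin, was lower (-1.16 ± 0.16, adjusted p = 7.48e-08) while TXNRD1, the reductase that recharges it, was higher (0.98 ± 0.15, adjusted p = 6.41e-07). KEAP1, which marks the transcription factor NFE2L2 for degradation, ran from -0.056 to 1.04 (median 0.75) in IVF and from 1.05 to 2.10 (median 1.79) in IVD, a difference of -1.06 ± 0.11 (adjusted p = 8.82e-11) without overlap. NFE2L2 itself was higher by 0.60 ± 0.15 (adjusted p = 0.000823), though not past the threshold as deposited (0.36, adjusted p = 0.0944). Of 6 peroxiredoxins tested 3 were lower (PRDX3 -0.88, PRDX4 -0.72, PRDX6 -0.61) and 0 were higher. Over the list 6 of 20 were higher and 7 lower, and all 7 lower genes passed on each dye.

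Of 16 tested genes of the unfolded protein and integrated stress response 6 were higher and 3 lower, and of 21 heat shock genes 9 were higher and 5 lower; as deposited these counts were 2 and 5, and 4 and 6. DDIT4, an inhibitor of mTOR induced by many stresses, ran from -3.26 to -1.35 (median -2.10) in IVF and from -1.40 to 0.51 (median -0.12) in IVD, a difference of -2.06 ± 0.23. MANF and HSP90B1, helpers of folding in the endoplasmic reticulum, were higher by 1.03 ± 0.14 (adjusted p = 3.76e-08) and 0.88 ± 0.21 (adjusted p = 0.000507). PDIA3 and DNAJC3, of the same compartment, were lower (PDIA3 -0.61 ± 0.17, DNAJC3 -0.65 ± 0.18). Of the heat shock list BAG1 (0.92 ± 0.19, adjusted p = 0.000125), DNAJC8 (0.81 ± 0.12, adjusted p = 3.89e-07) and HSPA8 (0.66 ± 0.11, adjusted p = 6.41e-06) were higher. In the chaperonin CCT, which folds actin and tubulin, CCT8 was lower (-0.78 ± 0.15, adjusted p = 2.04e-05) and CCT3 higher (0.58 ± 0.10, adjusted p = 5.33e-06). In PI3K, AKT and mTOR signalling 3 of 10 genes were higher and 3 lower. The kinase AKT1 was higher by 1.48 ± 0.14 without overlap, and by 0.85 with the dye cluster as a block, while the kinase RPS6KB1 was lower (-0.41 ± 0.14, adjusted p = 0.0123), but not past the threshold in Cy5 (-0.13, adjusted p = 0.578). MAPK3, of the MAPK cascade, was higher by 0.85 ± 0.17 (adjusted p = 8.28e-05). As deposited CCT3 did not pass (0.33, adjusted p = 0.076), nor did DNAJC3 with the embryo in Cy5 (-0.40, adjusted p = 0.112).

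Genes of the p53 response and apoptosis were more often lower than higher in IVF. TP53INP1, a p53 target, ran from -1.58 to 0.54 (median -0.48) in IVF and from 0.40 to 1.96 (median 0.87) in IVD, a difference of -1.54 ± 0.22 (adjusted p = 1.87e-07). With rows from 2 embryos per group TP53INP1 differed by -0.98. MDM2, the ubiquitin ligase that removes p53, differed by -1.45 ± 0.31 (adjusted p = 0.000166), with an AI median of -1.65 below both group medians (-1.01 in IVF, 0.46 in IVD). PDCD4, an inhibitor of translation, differed by -0.85 ± 0.22 (adjusted p = 0.00164). CASP2 was higher by 0.92 ± 0.19 (adjusted p = 0.000135), but by 0.20 with the embryo in Cy3, which did not pass. BAD, a promoter of apoptosis, was higher by 0.61 ± 0.13 (adjusted p = 0.000109), but did not pass as deposited (0.37, adjusted p = 0.0776). Of 15 tested members 3 were higher and 6 lower with a median of -0.27, and the median over the list did not overlap between IVF embryos (-0.13 to 0.31) and IVD embryos (0.34 to 1.18). Without the level trend the count was 5 higher and 5 lower and the median -0.11, so the balance of this list depended on the trend.

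The respiratory chain differed by subunit. In the list of complex I, which takes electrons from NADH, 4 of 19 tested members were higher and 9 lower (median -0.32). NDUFB5 differed by -1.04 ± 0.19 (adjusted p = 1.23e-05), NDUFB9 by -0.97 ± 0.14 (adjusted p = 1.66e-07) and NDUFA1 by -0.87 ± 0.18 (adjusted p = 0.000124). NDUFA4, counted in this list by its name although it is a subunit of cytochrome oxidase, differed by -0.97 ± 0.14 (adjusted p = 1.95e-07). NDUFV1, which binds NADH, was higher by 0.88 ± 0.13 (adjusted p = 5.91e-07), and the core subunit NDUFS8 by 0.58 ± 0.09 (adjusted p = 3.82e-07). In the other complexes COX17, a copper carrier for cytochrome oxidase, differed by -1.25 ± 0.18 (adjusted p = 1.95e-07) and the oxidase subunit COX7A2 by -0.88 ± 0.10 (adjusted p = 4.04e-09). SDHA, the catalytic subunit of complex II, was higher by 1.07 ± 0.16 (adjusted p = 7e-07), as was ATP5F1B of the ATP synthase (0.72 ± 0.10, adjusted p = 6.4e-08). UQCRC1 of complex III was higher by 0.79 ± 0.10 (adjusted p = 7.56e-09) in the mean, with clones that ranged from 0.04 to 1.34. NDUFS8 did not pass as deposited (0.33, adjusted p = 0.0524), and NDUFA4 was -0.53 with the embryo in Cy5.

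Ribosomal and translation genes were mixed in the same way. Of 44 cytosolic ribosomal proteins tested 9 were higher and 16 lower. RPL22 (-1.47 ± 0.19, adjusted p = 2.28e-08), RPS3A (-1.38 ± 0.15, adjusted p = 1.44e-09) and RPL30 (-1.30 ± 0.15, adjusted p = 1e-09) were lower, without overlap for RPS3A and RPL30. RPS2 ran from -1.60 to 0.29 (median -1.05) in IVF and from -2.95 to -1.72 (median -2.44) in IVD, a difference of 1.44 ± 0.15 (adjusted p = 4.27e-10) without overlap, and RPL18 was higher by 0.98 ± 0.13 (adjusted p = 7.9e-08). EIF4A1, the helicase that opens the 5′ ends of mRNAs, ran from -0.98 to 0.36 (median -0.40) in IVF and from 0.86 to 1.78 (median 1.39) in IVD, a difference of -1.79 ± 0.16 (adjusted p = 1.25e-12) without overlap, and an AI median of 1.17 near IVD. EIF4A2, its close relative, differed by -1.86 ± 0.21 (adjusted p = 1.6e-09), and hybridisation of each to the clone of the other was not tested. Of 9 subunits of the initiation factor eIF3, EIF3CL (1.29 ± 0.11, adjusted p = 9.04e-13), EIF3L and EIF3F were higher, and EIF3M (-1.14 ± 0.20, adjusted p = 8.54e-06), EIF3E, EIF3H and EIF3A were lower. As deposited EIF3L (0.33, adjusted p = 0.112) and EIF3F (0.058, adjusted p = 0.812) did not pass, and EIF3F also failed with the embryo in Cy5 (0.28, adjusted p = 0.198) and without IVD embryos 12_1 to 12_4 (0.27, adjusted p = 0.0602). YARS1, a tRNA synthetase, was lower (-1.31 ± 0.20, adjusted p = 8.54e-07) and WARS1, another, higher (1.12 ± 0.17, adjusted p = 8.84e-07). Of 35 mitochondrial ribosomal proteins 5 were higher and 9 lower, led by MRPS12 (1.34 ± 0.15, adjusted p = 2.79e-09) and MRPL43 (0.93 ± 0.18, adjusted p = 2.95e-05) on the higher side and MRPL33 (-0.73 ± 0.09, adjusted p = 5.88e-09) on the lower.

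In the proteasome, PSMA4, a subunit of the outer ring of its core, ran from -0.54 to 0.67 (median -0.25) in IVF and from 0.99 to 2.32 (median 1.44) in IVD. The groups did not overlap, the difference was -1.59 ± 0.16 (adjusted p = 1.36e-10), and the AI median was 0.47. PSMA6 of the same ring was lower too (-0.90 ± 0.12, adjusted p = 2.95e-08), and 3 of 5 tested subunits of that ring were lower and 0 higher. The last of these, PSMA7 (-0.27 ± 0.10, adjusted p = 0.0158), did not pass with the embryo in Cy3 (-0.20, adjusted p = 0.0661) or with its best-measured row (-0.089, adjusted p = 0.481). Among the 8 subunits of the inner ring, PSMB5 and PSMB6, catalytic subunits of the common proteasome, were lower (PSMB5 -0.61 ± 0.18, adjusted p = 0.00502, PSMB6 -0.64 ± 0.17, adjusted p = 0.00217). PSMB8, PSMB9 and PSMB10, the catalytic subunits that replace the common ones in the immunoproteasome, were all higher. PSMB10 differed by 0.71 ± 0.11 (adjusted p = 7.44e-07) and PSMB9 by 0.51 ± 0.17 (adjusted p = 0.0131). PSMB8 differed by 1.00 ± 0.20 (adjusted p = 9.28e-05) in the mean, but by 0.09 with the embryo in Cy3 and by 1.90 with it in Cy5, and was measured in 11 IVF embryos. PSMB9 did not pass with the embryo in Cy3 (0.28, adjusted p = 0.156) or as deposited (0.22, adjusted p = 0.407). PSMB6 did not pass with the embryo in Cy5 (-0.44, adjusted p = 0.0725). Calls made on both dyes with the same sign were 1 higher and 4 lower proteasome genes.

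Chromatin genes showed H2AZ1, a histone variant of promoters, running from -1.21 to -0.37 (median -0.52) in IVF and from -0.13 to 1.07 (median 0.62) in IVD. The difference was -1.22 ± 0.11 (adjusted p = 1.69e-12), without overlap, and the AI median of 0.43 lay near IVD. HMGB2, a DNA-bending protein, differed by -1.18 ± 0.17 (adjusted p = 1.47e-07) and the variant histone gene H3-3A by -0.75 ± 0.13 (adjusted p = 5.02e-06). MPHOSPH8, which binds methylated histone H3, was lower, with a difference of -1.57 ± 0.37 (adjusted p = 0.000573), and had values in 9 IVF embryos. HMGA1 was higher by 0.90 ± 0.19 (adjusted p = 0.000259), so that TRIM28, HMGA1 and 4 others made up the 6 higher genes of 21, against 9 lower. Among imprinted genes NAP1L5 (-1.18 ± 0.19, adjusted p = 3.08e-06), MEST (-0.89 ± 0.16, adjusted p = 1.44e-05) and H19 (-0.55 ± 0.10, adjusted p = 2.84e-05) were lower and GNAS (0.81 ± 0.15, adjusted p = 1.75e-05) and SGCE (0.99 ± 0.25, adjusted p = 0.000876) higher. SGCE lies at the low end of the level range and differed by 0.75 without the trend (adjusted p = 0.00696); its highest IVF embryo stood at -0.25 and the next at -3.78. IGF2 differed by 0.35 ± 0.12 (adjusted p = 0.0126) in the mean, but its rows ranged from -0.10 to 0.81, and it changed sign with the best-measured row (-0.10, adjusted p = 0.633).

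Vesicle genes leaned towards higher values in IVF, with 13 of 39 tested members higher and 7 lower (median 0.17), but 6 higher and 12 lower in the values as deposited. With rows measured in every embryo 8 of 25 were higher and 7 lower (median -0.016). Cy3 arrays alone gave 12 higher and 10 lower (median 0.018), and Cy5 arrays alone 17 and 7 (median 0.25). ARF1, a GTPase of Golgi coats, ran from 0.086 to 1.00 (median 0.55) in IVF and from -1.04 to -0.078 (median -0.71) in IVD, a difference of 1.17 ± 0.11 (adjusted p = 2.81e-11) without overlap. SEC31A and SEC13, which form the outer coat of vesicles that leave the endoplasmic reticulum, were both higher (SEC31A 1.02 ± 0.13, adjusted p = 1.43e-08, SEC13 0.89 ± 0.11, adjusted p = 3.09e-08). RAB11A, a GTPase of recycling endosomes, differed the other way, running from 0.35 to 1.41 (median 0.88) in IVF and from 1.44 to 2.37 (median 2.00) in IVD, a difference of -1.12 ± 0.11 (adjusted p = 1.82e-11) without overlap. The lysosomal proteins LAMP1 and LAMP2 differed in opposite directions, LAMP1 by 0.75 ± 0.09 (adjusted p = 1.97e-09) and LAMP2 by -0.84 ± 0.13 (adjusted p = 4.51e-07).

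Trophectoderm and junction genes include the highest levels on the arrays, where the level trend weighs most. A whole embryo was measured, so fewer cells of a type and less RNA per cell cannot be told apart. CDH1, the epithelial cadherin, ran from 3.72 to 5.10 (median 4.25) in IVF and from 5.18 to 5.79 (median 5.40) in IVD. No embryos overlapped and the difference was -1.14 ± 0.11 (adjusted p = 5.32e-11), but the AI median was 4.28, and without the trend the difference was -0.32 (adjusted p = 0.0129). EPCAM, an adhesion protein of epithelia, differed by -0.94 ± 0.12 (adjusted p = 3.61e-08) and by -0.51 without the trend (adjusted p = 0.000593). TFAP2C, a transcription factor of trophectoderm, differed by -1.11 ± 0.17 (adjusted p = 4.25e-07) and by -0.58 without the trend (adjusted p = 0.00521). PTGS2, which starts prostaglandin synthesis, ran from 4.88 to 5.43 (median 5.22) in IVF and from 4.52 to 6.54 (median 6.24) in IVD, a difference of -0.91 ± 0.14 (adjusted p = 6.68e-07) that changed sign without the trend (0.07, adjusted p = 0.642). The same happened to AQP3, a water channel of the blastocyst (-0.56 with the trend, 0.19 without, adjusted p = 0.164).

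Other members kept their difference without the trend. GJB5, a connexin, ran from -0.51 to 0.76 (median 0.30) in IVF and from 0.79 to 2.02 (median 1.11) in IVD, a difference of -0.95 ± 0.13 (adjusted p = 8.55e-08) without overlap (-0.89 without the trend). DSC2, a cadherin of desmosomes, was higher by 1.46 ± 0.25 (adjusted p = 6.93e-06) and by 1.72 without the trend. The keratin KRT19 was higher by 0.83 ± 0.18 (adjusted p = 0.000189) and by 1.14 without the trend. CLDN1, a tight junction protein, varied widely, from -2.85 to 2.25 (median -0.54) in IVF and from -0.47 to 2.98 (median 1.06) in IVD, with a difference of -1.59 ± 0.49 (adjusted p = 0.00639), which did not pass with rows from 2 embryos per group (-0.99, adjusted p = 0.0809). Counts followed the same line: of 20 junction genes 3 were higher and 8 lower as measured, against 8 and 5 without the trend, and of 17 trophectoderm markers 3 were higher and 7 lower as measured, against 4 and 3.

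In the cytoskeleton and extracellular matrix list 8 of 41 genes were higher and 12 lower, near the background. At the low end of the level range lay VIM, COL3A1 and TNC, which are far below the reference in every group. VIM, vimentin, ran from -4.96 to -4.08 (median -4.45) in IVF and from -5.85 to -5.36 (median -5.62) in IVD, a difference of 1.17 ± 0.08 (adjusted p = 1.47e-15) without overlap. COL3A1, a fibrillar collagen, and TNC, a matrix glycoprotein, differed by 1.47 ± 0.11 (adjusted p = 4.21e-14) and 1.62 ± 0.13 (adjusted p = 8.95e-14). Without the trend the 3 differences were 0.89, 1.12 and 1.31, each past the threshold, and the AI medians (-4.62, -5.19 and -4.82) lay near those of IVF. MMP2, a matrix protease that is also low (IVF median -2.95), did not pass (0.20 ± 0.11, adjusted p = 0.127), and FN1, fibronectin, was lower (-0.37 ± 0.13, adjusted p = 0.0217). The cytoskeletal genes TPM1 (-1.54 ± 0.18, adjusted p = 1.9e-09) and TMSB4X (-1.48 ± 0.18, adjusted p = 6.46e-09) were lower in IVF, and their AI medians were -2.20 and -0.73.

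Markers of other cells were few. Of the cumulus and granulosa list, 4 genes were tested and 2 were higher in IVF, at a median level over the list of -2.18 to -0.013 in IVF embryos and -2.25 to 0.014 in IVD embryos. HSD3B1, a steroid-making enzyme, ran from -2.18 to 1.07 (median -0.45) in IVF and from -4.90 to -0.59 (median -1.81) in IVD, a difference of 1.42 ± 0.34 (adjusted p = 0.00074), and the AI median was -1.46. CYP19A1, aromatase, the defining enzyme of granulosa cells, differed by 0.21 ± 0.08 (adjusted p = 0.0346), did not pass under quantile normalization (0.18, adjusted p = 0.0766) and was -0.032 in the values as deposited. The other members did not pass, CD44 at 0.14 ± 0.12 (adjusted p = 0.345) and TNFAIP6, a matrix protein of the expanding cumulus, at -0.60 ± 0.27 (adjusted p = 0.0718). TNFAIP6 passed as lower in IVF without the level trend (-0.66, adjusted p = 0.0456) and under quantile normalization (-0.64, adjusted p = 0.0392), so that with these settings 1 gene of the list was higher and 1 lower. The 2 blood markers that could be tested did not pass (CD14 0.14, adjusted p = 0.467, and ITGB2 -0.13, adjusted p = 0.374). CD3D and CD68 had values in 14 IVD and 0 IVF embryos, CD3E in 12 and 0, and CD74 in 14 and 3, so they were not compared. The array held 0 of the listed sperm markers. It held 1 oocyte and 1 oviduct marker, and neither met the minimum of 7 embryos in every group. ZP3, the oocyte marker, had values in 13 IVD and 0 IVF embryos. The oviduct marker MUC1 had values in 14 IVD, 13 IVF and 1 AI embryos, and in a fit of IVF and IVD alone it did not pass (0.32 ± 0.16, adjusted p = 0.108). The part of remaining cumulus cells in these results was not tested. Of 16 listed inner cell mass markers 2 were tested, with 0 higher and 1 lower. The lower one was KLF4, a pluripotency factor that trophectoderm also expresses, with a difference of -1.07 ± 0.18 (adjusted p = 3.26e-06). SALL4, the other, did not pass and differed by 0.13 without the level trend (adjusted p = 0.751). Of 3 tested primitive endoderm markers 2 were higher and 0 lower, and 0 of them passed on each dye with the same sign.

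The dyes differed in their tally, with 36.4% of calls higher in IVF when the embryo was in Cy3 and 57.4% when it was in Cy5. Across features, which are not independent replicates, the difference on the Cy3 arrays correlated with that on the Cy5 arrays at r = 0.66. A call in the mean and on each dye with the same sign was made for 28.9% of features. In the plot of dyes PIK3R1, a regulatory subunit of the PI3 kinase, is the one gene past the threshold with opposite signs, -2.21 in Cy3 and 0.39 in Cy5. Of the 168 genes chosen by the naming rule that passed, 83 also passed with the dye cluster as a block, among them PSPH, CD59, CRIPT, S100A14, UTP11, TBRG4, TRIM28, PABPN1, SF3B6, GAR1, CDC20, CDK4, ALDOA, PKM, SOD1, KEAP1, EIF4A1, EIF3CL, PSMA4, H2AZ1, RAB11A, ARF1, SMAD1 and VIM, while LARP7, CPSF3, GAPDH, RPL22, COX17 and CDH1 are among the 82 that did not.

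**Figure D5:**
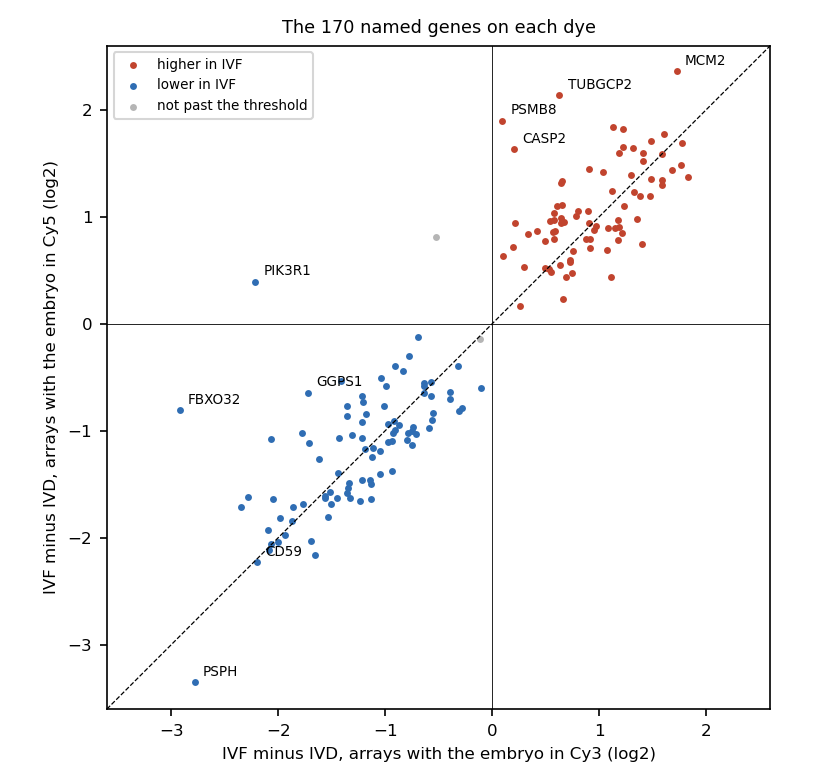
Difference IVF minus IVD (log2) of the 170 genes chosen by the naming rule, from the arrays with the embryo in Cy3 (horizontal) and in Cy5 (vertical); red genes were higher, blue lower and grey not past the threshold in the mean, and the dashed line marks equal values. PSPH (-2.78 and -3.35) and MCM2 (1.72 and 2.36) lie far out on both axes, PSMB8 (0.09 and 1.90) and FBXO32 (-2.92 and -0.80) on one.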

How the data were processed

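RNA of 43 single bovine embryos (14 AI, 14 IVD, 15 IVF) was measured on 86 arrays, 2 per embryo with exchanged dyes. The deposited table holds log2 ratios for 16416 rows; per the labels it has 1 column per array, and how the authors analysed the images, corrected background and normalized is not stated in the labels or the header. Array medians ran from -2.22 to 1.06. Of all cells 20.1% had no usable value (280751 empty, 3308 null and 16 at a ceiling). No column belonged to no sample. A ratio keeps no spot brightness, so how far a spot stood above background is unknown, and the number of arrays limits the precision.

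Each array was centred on the median of 5558 rows, the array with the embryo in Cy3 was turned in sign, and both arrays of an embryo were averaged. Rows with values in at least 7 embryos of each group (10757) were kept, and rows of 1 gene averaged into 6278 features. Of the rows 11196 carried 1 symbol, 190 several and 5030 none in the platform table; 11182 matched RefSeq (ARS-UCD2.0), used for names only. Other clones of a gene family can hybridise to a row, which was not tested.

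limma 3.58.1 in R 4.3.3 fitted AI, IVD and IVF together, with Benjamini-Hochberg adjustment and a threshold of 0.05; Python 3.11.15, pandas 2.3.3 and matplotlib 3.10.9 served for tables and plots. In a test on simulated data of this comparison over 6278 features, 44 of 100 features changed by 0.5 and 94 of 100 changed by 1 (log2) were recovered, with 6 false calls. That test changed 100 features of each size, whereas 47.6% of features passed in the embryos. Recovery and false calls under so many differences, or with the level trend and dye pattern of the arrays, were not tested. The share of false calls among the features that passed is therefore not known. Without adjustment 3358 features had p under 0.05. The embryos were taken by label, but the comparison itself and the gene lists were chosen with earlier results of these data known. The text names the 15 highest and 15 lowest named genes, up to 5 genes per list, the 6 widest gaps between groups in each direction, and the markers; genes named beyond that, to show the makeup of a complex or list, and the complexes themselves, were chosen after their values were seen. Alternatives covered centring, normalization, single dyes, filters, clones, embryos left out, weights and blocks.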

Additional observations from a re-analysis of the deposited data

How the results depend on the processing

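Under 15 other ways of processing, and 3 more added later, the number of features past the threshold ranged from 541 to 3257, against 2986. As deposited, without centring, 2663 passed but only 465 were higher in IVF. With rows measured in every embryo, 3533 features could be tested and 1880 passed, 846 higher and 1034 lower. With the dye-bias cluster as a block 541 passed, 241 higher and 300 lower; there GNL3 (0.0845), NOP58 (0.163) and CD81 (-0.267) changed sign. Elsewhere PIK3R1 changed sign with the embryo in Cy5 alone (0.394), CYP19A1 as deposited (-0.0321), PTGS2 (0.0655) and AQP3 (0.195) without the level trend, and IGF2 with rows measured in every embryo and with the best-measured row alone (-0.103 in both). Of the 168 genes that passed by the naming rule, 150 kept sign and threshold as deposited, 164 under quantile normalization, 157 on Cy3 and 156 on Cy5 arrays alone, 161 without the level trend and 83 with the dye cluster. Removing the level trend, leaving out IVF embryos 1, 7 and 11 (2864 passed) and fitting the embryos of shared numbers without a block were chosen after seeing the data. Without IVD embryos 12_1 to 12_4, 2780 features passed.

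The labels do not say that embryo numbers pair the groups. Over 9 shared numbers the correlation of deviations ran from -0.108 to 0.121, with 1 over 0.1. So few numbers cannot decide whether embryos of the same number had a donor or day in common. With the number as a replicate block 2332 features passed, against 2575 for the same embryos without the block.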

Other observations

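Many genes could not be compared because the arrays of IVF embryos held no value for them. In 485 rows all 14 IVD embryos and no IVF embryo had a value, against 1 row the other way round. Of the 3755 rows with values in at least 7 IVD but fewer than 7 IVF embryos, 3497 also had fewer than 7 AI embryos, so the gap was shared by AI. The median IVD level of these rows was 0.0272, against -0.0793 for rows kept, so they were not low in their ratio to the reference. Among list members, the splicing factor gene SNRNP70, the endosomal GTPase gene RAB7A, the phosphatase gene DUSP4 and TSC1, a brake on mTOR, had values in 14 IVD embryos and in at most 1 IVF embryo. A few genes were measured the other way: the kinase gene MAP2K1 in 14 IVF and 3 IVD embryos and HNRNPC in 12 IVF and 4 IVD embryos. What leaves a row without a value was not tested.

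Haem and iron had the highest median difference among lists with at least 8 tested genes (0.56), with 3 of 8 genes higher, against 22.3% of all features, and 2 lower; as deposited 1 was higher and 2 lower. In this list ALAD (0.81 ± 0.15, adjusted p = 1.36e-05) and ALAS1 (0.63 ± 0.13, adjusted p = 0.000123), enzymes of haem synthesis, were higher. In the GPI anchor and complement list CD59, an inhibitor of complement, ran from -2.01 to 0.63 (median 0.015) in IVF and from 1.30 to 2.74 (median 2.03) in IVD, with a difference of -2.21 ± 0.20, while PLAUR, the urokinase receptor, was higher by 0.69 ± 0.09 (adjusted p = 3.6e-08). Both proteins are carried by GPI anchors. Of the enzymes that attach the anchor, PIGK was lower (-0.98 ± 0.25, adjusted p = 0.00109) and PIGT higher (0.46 ± 0.11, adjusted p = 0.000657).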
